A study of Mus musculus with 6 samples.

Results

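Genes of antigen presentation by the major histocompatibility complex (MHC) and of the response to interferon were examined in RNA from mouse stomach antrum. They were 41 genes chosen by name and function: 5 of MHC class I and its light chain, 5 of MHC class II and its invariant chain, 2 transactivators, 6 of peptide processing and loading, 5 transcription factors of the interferon response and 18 interferon-induced effectors. Of these, 38 had a probe set annotated to that gene alone, among 12393 genes measured in this way, and the probe set with the highest mean over the 6 arrays stood for each gene. H2-T23 and Isg15 had only probe sets annotated to several genes, and Nlrc5 was not listed, so these 3 were not analysed here. Of the 38, 33 passed the filter on dim genes and were tested among 9395 genes. Ifit2, Ifit3, Mx2, Cxcl9 and Cxcl10 lay below it.

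Antral RNA came from Satin, Beige and C57/BL6 (here BL6) mice, with 2 Affymetrix arrays per strain, and the question of the study was how FOXQ1 bears on the cell lineages of the stomach. Satin mice are known for a mutation of Foxq1, a forkhead transcription factor gene, and Beige mice for a mutation of Lyst, a regulator of lysosome size. BL6 is a widely used inbred strain, and Beige and BL6 were both titled as controls. The alleles, the background of the Satin and Beige mice, their MHC haplotypes, age, sex and any treatment are not stated by the labels, so differences of background and of Foxq1 between the strains cannot be told apart. Below, "both controls" means the mean of the Beige and BL6 means, levels are log2(signal + 32) after quantile normalization, a difference is Satin minus control on that scale, and a gene was called where the p from limma, adjusted after Benjamini and Hochberg across the 9395 genes, was under 0.05.

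MHC class I molecules present peptides from inside the cell on nearly every cell type, together with the light chain beta-2 microglobulin, while class II molecules present peptides taken up from outside and are made mainly by dendritic cells, macrophages and B cells. Interferons act through receptors and STAT and IRF transcription factors, which bind a response element in the promoters of many antiviral genes, and interferon gamma also raises the genes of both MHC classes, class II through the transactivator CIITA. In the gut lining, epithelial cells can add class II genes to their output when exposed to interferon gamma.

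The promoters of 32 of the 41 genes were found in a table of RefSeq promoters (GRCm38.p6; 250 bases before and 50 after each start). The table held 32851 windows for 27025 genes, and a gene counted where any of its windows held the letters searched for. The core of the interferon response element, GAAANNGAA, searched on both strands, was found in 14 of the 32 genes (43.8%) and in 9.76% of all 27025. It was found in 11 of 14 effectors, in Stat2 and in the class I genes B2m and H2-T23, and in 0 of 3 class II and 0 of 5 processing genes. The kappa B site of the class I enhancer, GGGGATTCC, was found in H2-K1 and H2-D1, against 0.296% of all genes. The shorter CCAAT, part of the Y box of class II promoters, was found in 59.4% of the 32 genes, against 41.1% of all genes. Such a match describes the letters in the window and not whether a factor binds there. Other forms of the interferon element were not counted, so a window without a match may still hold one. The 5 promoters below, from 200 bases before the start to 30 after it, belong to the gene that was called in Satin (Trim34a), to the class I light chain and heavy chain genes with unlike values (B2m and H2-K1) and to 2 effectors of the main families (Gbp2 and Ifit1). They are written 5′ to 3′ on the strand of the gene, with GAAANNGAA or its reverse complement in capitals in 4 of them and GGGGATTCC in capitals in H2-K1.
Trim34a, chr7:104244257-104244486, plus strand: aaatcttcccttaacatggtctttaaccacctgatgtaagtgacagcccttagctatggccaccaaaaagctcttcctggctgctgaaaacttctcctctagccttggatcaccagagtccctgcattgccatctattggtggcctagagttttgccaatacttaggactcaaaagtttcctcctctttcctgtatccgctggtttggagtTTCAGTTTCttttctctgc
B2m, chr2:122147487-122147716, plus strand: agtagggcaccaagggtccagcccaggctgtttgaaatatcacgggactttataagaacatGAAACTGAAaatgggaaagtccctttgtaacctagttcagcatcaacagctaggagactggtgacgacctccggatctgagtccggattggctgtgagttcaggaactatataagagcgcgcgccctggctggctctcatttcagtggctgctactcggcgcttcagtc
H2-K1, chr17:34000318-34000547, minus strand: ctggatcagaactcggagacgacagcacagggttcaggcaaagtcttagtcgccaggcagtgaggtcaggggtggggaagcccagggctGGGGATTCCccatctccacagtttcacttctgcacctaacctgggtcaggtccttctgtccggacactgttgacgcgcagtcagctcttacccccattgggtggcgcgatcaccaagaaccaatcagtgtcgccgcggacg
Gbp2, chr3:142620463-142620692, plus strand: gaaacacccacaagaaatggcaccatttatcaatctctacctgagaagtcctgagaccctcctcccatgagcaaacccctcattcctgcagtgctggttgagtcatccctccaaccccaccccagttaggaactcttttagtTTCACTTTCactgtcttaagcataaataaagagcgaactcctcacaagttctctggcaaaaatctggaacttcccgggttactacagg
Ifit1, chr19:34640689-34640918, plus strand: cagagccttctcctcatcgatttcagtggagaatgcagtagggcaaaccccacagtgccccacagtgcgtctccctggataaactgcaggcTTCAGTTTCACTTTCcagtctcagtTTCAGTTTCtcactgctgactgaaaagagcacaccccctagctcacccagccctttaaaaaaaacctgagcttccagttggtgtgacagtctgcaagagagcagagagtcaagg
Read along the gene, the core began at base 12 of the transcript in Trim34a, 139 bases before the start in B2m and 58 before it in Gbp2. Ifit1 held 3 copies, of which those at 109 and 103 bases before the start overlap by some bases, and the other lay at 84.

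Of the 33 genes tested, 1 was called in Satin against both controls, Trim34a, which was lower in Satin, while 1.44% of all genes tested were called (0.436% higher and 1.00% lower). Against Beige alone 0 of 33 were called, where 0.894% of all genes were (0.224% higher and 0.671% lower). Against BL6 alone 0 of 33 were called, where 0.745% of all genes were (0.224% higher and 0.522% lower). At an unadjusted p under 0.05, limma gave 7 of 33 genes against both controls (12.6% of all genes), 3 against Beige (10.5%) and 5 against BL6 (12.6%). These comparisons share the Satin arrays. The 38 genes lay evenly about 0, with 19 higher and 19 lower in Satin and a median difference of -0.02, against -0.01 over all 12393 genes. The roles differed in where they lay. The median difference was 0.25 for class I, 0.29 for class II and 0.07 for processing and loading. It was -0.15 for the transcription factors and -0.32 for the effectors. The class I median is of 4 genes and lies in a gap between them. H2-K1 and H2-D1 were at 0.01 and 0.00, B2m at 0.50 and H2-Q10 at 1.10. Single arrays moved the medians of the roles. With each array left out in turn, class I ran from 0.20 to 0.32, class II from 0.12 (without Satin replicate 2) to 0.47 (without Satin replicate 1), and processing and loading from -0.11 to 0.34 without the same arrays, so that its sign turned. The transcription factors ran from -0.26 (without Beige replicate 2) to -0.07 (without BL6 replicate 1), and the effectors from -0.53 (without BL6 replicate 2) to -0.07 (without BL6 replicate 1). No test was made of these medians or of the difference between them.

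**Figure D1:**
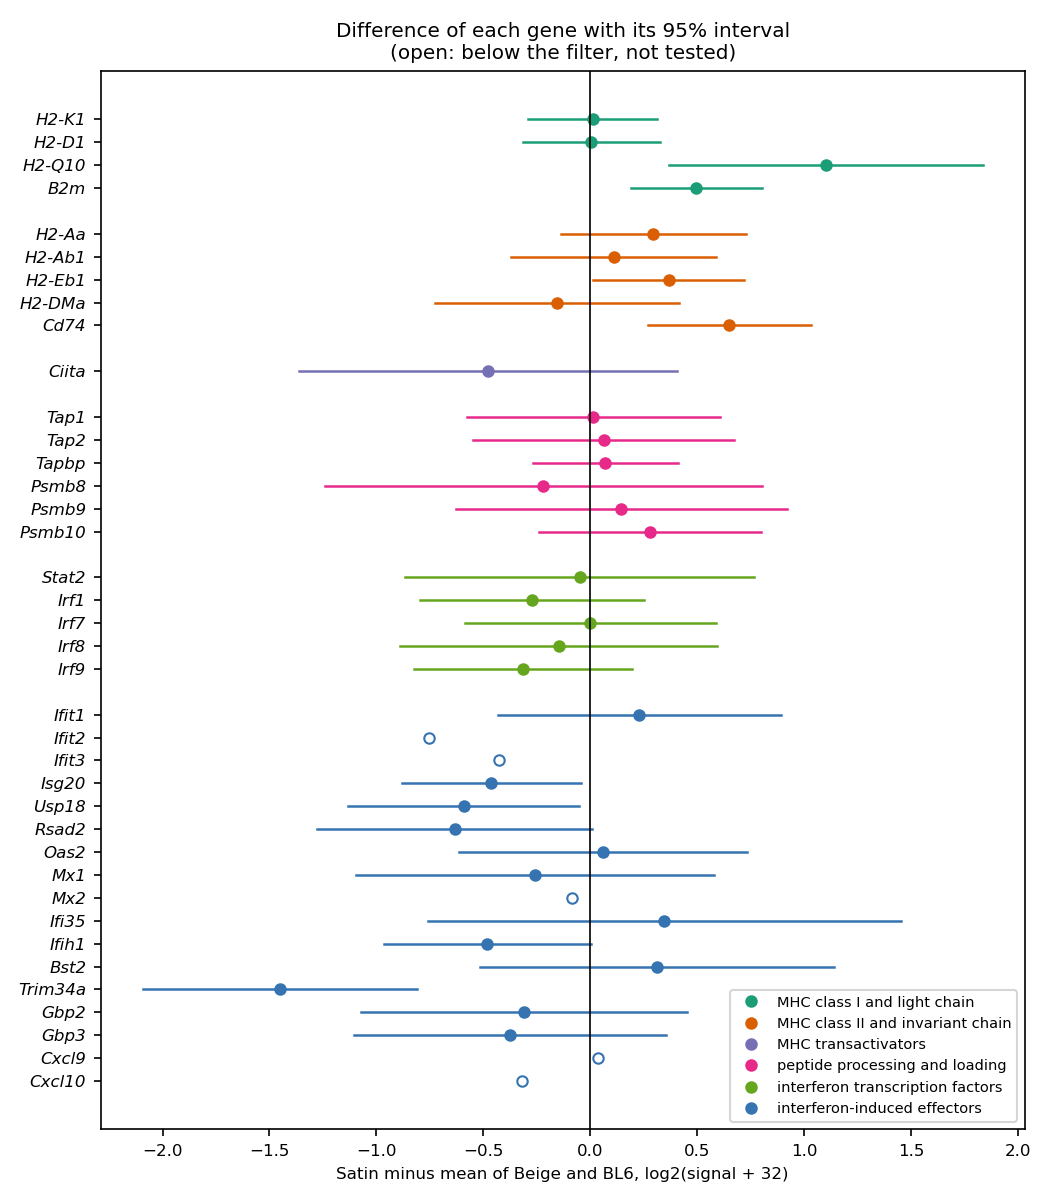
Difference of each of the 38 genes, Satin minus the mean of Beige and BL6 in log2(signal + 32), by role; points are fitted differences, lines their 95% intervals, and open points genes below the filter with no test. Trim34a lies lowest at -1.45 and H2-Q10 highest at 1.10, and most intervals include 0.

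The classical class I heavy chains, which present peptides to CD8 T cells, were well above the filter on all arrays, and their strain means lay close together. H2-K1 had levels of 11.33 and 11.52 in Satin, 11.46 and 11.38 in Beige, and 11.34 and 11.47 in BL6. H2-D1 had 10.64 and 10.80 in Satin, 10.92 and 10.76 in Beige, and 10.46 and 10.72 in BL6. The strains overlapped for both genes. The difference of H2-K1 against both controls was 0.01 (SE 0.13, 95% interval -0.29 to 0.31; limma, adjusted p = 0.983) and that of H2-D1 was 0.00 (SE 0.14, interval -0.31 to 0.32; adjusted p = 0.995).

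B2m, the light chain that every class I heavy chain needs at the cell surface, had 10.40 and 10.44 in Satin, 10.26 and 10.09 in Beige, and 9.57 and 9.76 in BL6. The strains did not overlap, with Satin highest and BL6 lowest. Its difference was 0.50 against both controls (SE 0.14; limma, adjusted p = 0.137), 0.24 against Beige (adjusted p = 0.666) and 0.75 against BL6 (adjusted p = 0.0782), and it was not called in any of them. Without BL6 replicate 2, it was called against BL6 (0.84, adjusted p = 0.0382). Another probe set of B2m gave 0.45 against both controls.

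H2-Q10 encodes a secreted class I molecule known as a product of the liver. It was dim, with 6.48 and 7.06 in Satin, 6.48 and 5.74 in Beige, and 5.15 and 5.31 in BL6. Satin and BL6 did not overlap, Beige replicate 1 was level with Satin replicate 1, and both BL6 arrays lay under the filter threshold of 5.74. The difference was 1.10 against both controls (SE 0.33; limma, adjusted p = 0.169) and 1.54 against BL6 (SE 0.38; adjusted p = 0.131). Class I genes resemble each other closely, so a probe set named for H2-Q10, H2-K1 or H2-D1 may also bind transcripts of related genes, and its value is uncertain in that respect.

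Of the class II genes, 4 of 5 were higher in Satin (5 of 5 with arrays as deposited), 0 were called and 2 had an unadjusted limma p under 0.05. Cd74, the invariant chain that escorts class II molecules, had 9.24 and 9.68 in Satin, 9.08 and 8.83 in Beige, and 8.72 and 8.59 in BL6. Both Satin arrays lay above all 4 control arrays, Satin replicate 1 by a small margin over Beige replicate 1. The difference was 0.65 against both controls (SE 0.17; limma, adjusted p = 0.121), 0.50 against Beige (adjusted p = 0.408) and 0.80 against BL6 (adjusted p = 0.131).

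H2-Eb1, a class II beta chain, had 8.79 and 9.003 in Satin, 8.68 and 8.40 in Beige, and 8.56 and 8.47 in BL6, with both Satin arrays again above all the controls (0.37, SE 0.16; limma, adjusted p = 0.371). H2-Aa, a class II alpha chain, had 9.89 and 10.24 in Satin, 9.91 and 9.78 in Beige, and 10.01 and 9.39 in BL6. Here the strains overlapped, and the difference was 0.29 (SE 0.19; adjusted p = 0.602). H2-Ab1, the beta chain that pairs with it, differed by 0.11, and H2-DMa, part of the complex that loads class II molecules, by -0.15. Both Satin arrays lay above all 4 control arrays for 3 of the 33 genes tested (9.09%), which were B2m, Cd74 and H2-Eb1, and for 10.9% of all genes tested. With arrays as deposited these 3 were among 12 of the 33, against 44.2% of all genes.

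Ciita, the class II transactivator, was dim and varied within the control strains. It had 5.61 and 5.62 in Satin, 6.60 and 5.46 in Beige, and 6.55 and 5.75 in BL6. The replicate 1 arrays of the control strains were high and their replicate 2 arrays near the Satin arrays, all close to the filter threshold, and the difference was -0.48 (SE 0.39; limma, adjusted p = 0.699). Its other probe set, below the filter, differed by 0.20.

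**Figure D2:**
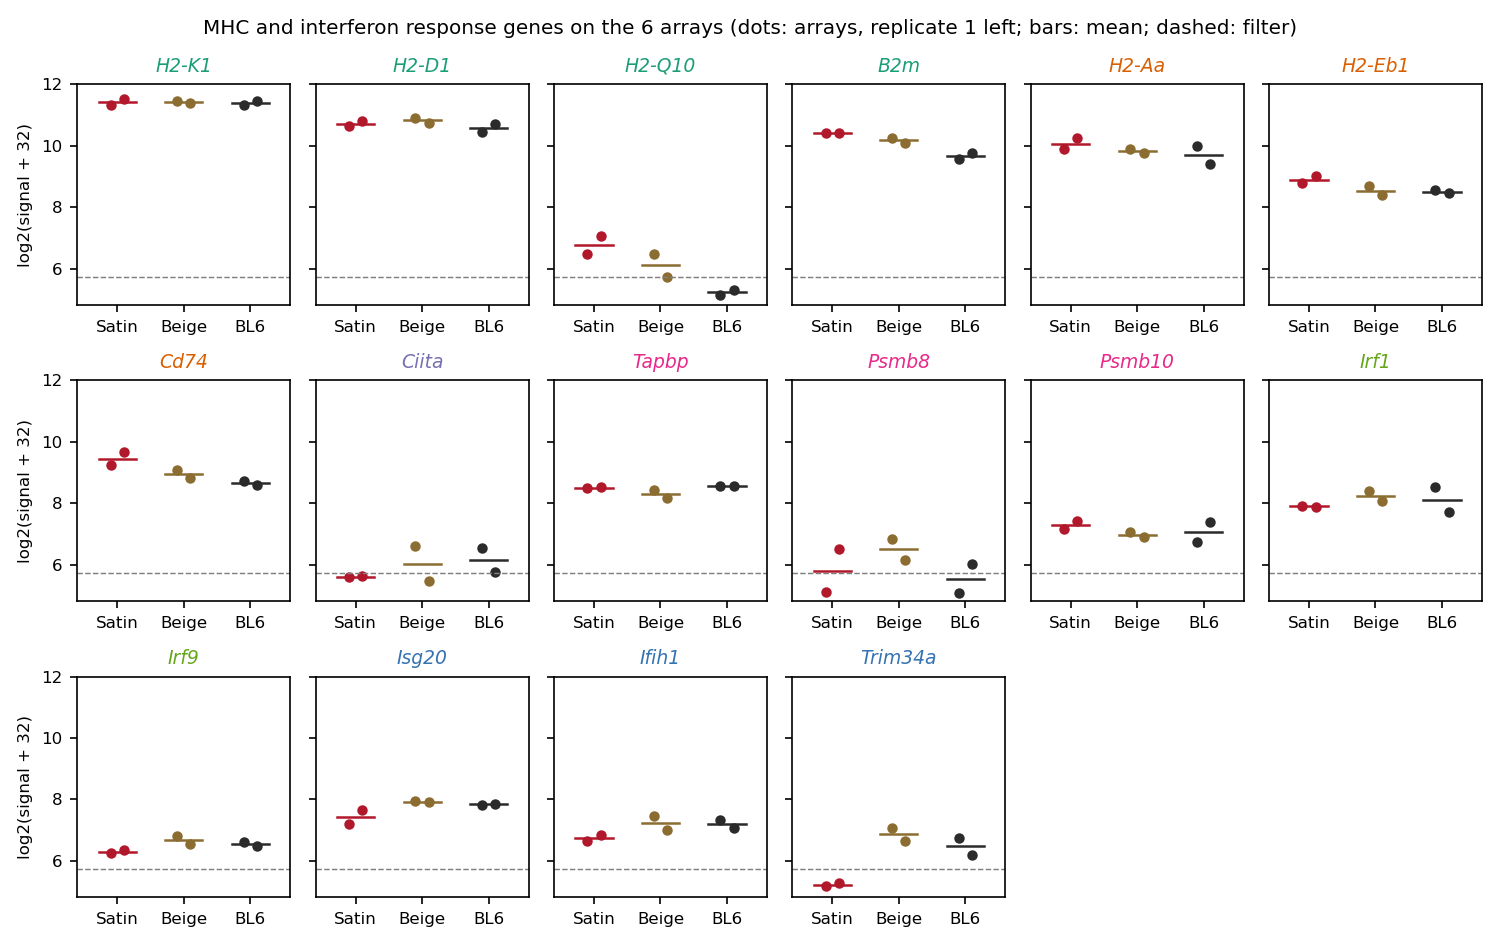
Level of 16 genes in log2(signal + 32) on each array, with Satin, Beige and BL6 from left to right; points are arrays with replicate 1 on the left, bars are strain means, the dashed line is the filter threshold of 5.74, and title colours mark the role. B2m and Cd74 step down over Satin, Beige and BL6, and the Satin arrays of Trim34a, at 5.17 and 5.25, lie apart from the controls.

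Class II genes mark antigen-presenting cells, so the markers of leukocytes are given beside them. In bulk RNA, fewer cells of a type and less RNA per cell cannot be told apart. Of 5 markers of all leukocytes 0 were called and 2 had an unadjusted limma p under 0.05, and their summed normalized signal was 332 to 708 on the Satin arrays and 257 to 484 on the control arrays. Of 17 macrophage and dendritic cell markers, 15 were tested, 0 were called and 2 had such a p, with sums of 1800 to 2279 in Satin and 1875 to 2912 in the controls, and Zbtb46 and Batf3 lay below the filter. B cell markers, 6 measured, 5 tested and 0 called, summed to 113 to 421 in Satin and 53.7 to 224 in the controls, with Pax5 below the filter. Satin replicate 2 was highest in the leukocyte and B cell sums, as it was in Cd74, H2-Eb1 and H2-Aa. The macrophage and dendritic cell sum was highest on the Beige arrays (2912 and 2708, against 2279 on Satin replicate 2). Of these 17 markers 14 were lower in Satin than in Beige, and 11 were higher in Satin than in BL6. The other class II genes were not highest on Satin replicate 2 either. H2-Ab1 was highest on BL6 replicate 2 (8.08, against 8.07 on Satin replicate 2). H2-DMa was highest on BL6 replicate 1 (6.66, against 6.39). The T and NK cell markers were dim, with sums of 182 to 245 in Satin and 196 to 257 in the controls, 0 called, and 9 of 13 below the filter (Cd3d, Cd3g, Cd4, Cd8b1, Cd2, Gzma, Gzmb, Klrk1 and Ncr1). Of 6 plasma cell markers 2 rose in Satin, Igha by 3.34 and Jchain by 2.00 (limma, adjusted p = 0.00142 and 0.0264), with sums of 3188 to 3213 in Satin and 906 to 1808 in the controls and Tnfrsf17 below the filter. Of 4 neutrophil markers S100a8 rose, by 1.83 (adjusted p = 0.0219), with sums of 191 to 275 in Satin and 25.4 to 84.8 in the controls and S100a9 and Cxcr2 below the filter. The part of any of these cells in the class I and class II values was not tested.

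The genes that cut peptides and load them onto class I had differences between -0.22 and 0.28. Tapbp, tapasin, which holds class I molecules at the peptide transporter, had 8.48 and 8.51 in Satin, 8.42 and 8.16 in Beige, and 8.58 and 8.55 in BL6 (0.07, SE 0.15; limma, adjusted p = 0.902). Psmb10, a subunit of the immunoproteasome, had 7.16 and 7.43 in Satin, 7.06 and 6.89 in Beige, and 6.74 and 7.38 in BL6 (0.28, SE 0.23; adjusted p = 0.701). The Satin arrays lay within or close to the range of the controls for both genes.

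Psmb8, another subunit of the immunoproteasome, had 5.11 and 6.50 in Satin, 6.84 and 6.17 in Beige, and 5.08 and 6.01 in BL6, a spread within strains that was wider than its difference of -0.22 (SE 0.45). The sign of that difference depended on the arrays used: it was 0.46 without Satin replicate 1 and 0.02 without BL6 replicate 2. The transporter subunits Tap1 and Tap2 differed by 0.01 and 0.06, and Psmb9 by 0.14. Of the 6 processing genes 0 were called and 0 had an unadjusted limma p under 0.05.

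Of the 5 transcription factors 0 were called and 0 had an unadjusted limma p under 0.05. After quantile normalization 4 were lower in Satin, but under hybridization scaling, or with no scaling at all, 5 of 5 were higher, where the median of all genes was itself higher, and 0 of 5 lay above that median. Irf1, which drives class I and immunoproteasome genes under interferon gamma, had 7.92 and 7.88 in Satin, 8.40 and 8.08 in Beige, and 8.52 and 7.70 in BL6. The Satin arrays lay inside the BL6 pair, and the difference was -0.27 (SE 0.23; limma, adjusted p = 0.709). Irf9, the DNA-binding part of the complex that answers interferon alpha and beta, had 6.24 and 6.35 in Satin, 6.79 and 6.55 in Beige, and 6.61 and 6.47 in BL6. Both Satin arrays lay under all 4 controls (-0.31, SE 0.23; adjusted p = 0.648). Its partner Stat2 differed by -0.05, Irf7, which amplifies interferon production, by 0.00, and Irf8, a factor of macrophages and dendritic cells, by -0.15. The other probe set of Irf8, below the filter, differed by 0.78.

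Of the 17 effectors measured, 12 were lower and 5 higher in Satin (10 and 7 with arrays as deposited, 9 and 8 under hybridization scaling), and 1 of the 12 tested was called. Trim34a, a tripartite motif protein of a family with antiviral members, had 5.17 and 5.25 in Satin, 7.08 and 6.65 in Beige, and 6.74 and 6.19 in BL6. As deposited, its signals were 5.4 and 7.4 in Satin, 89.5 and 66.6 in Beige, and 65.9 and 29.3 in BL6. The Satin arrays were near the bottom of the scale, below the filter threshold, and all 4 control arrays lay above it, BL6 replicate 2 lowest, so the gene passed the filter through its control levels. The difference against both controls was -1.45 (SE 0.28, 95% interval -2.09 to -0.81; limma, adjusted p = 0.0441). It was -1.65 against Beige (adjusted p = 0.0619) and -1.25 against BL6 (adjusted p = 0.158), and Beige and BL6 differed by 0.40 (adjusted p = 0.885).

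The call of Trim34a held in 1 of the 6 fits that left out an array, without BL6 replicate 2 (limma, adjusted p = 0.0261). It was lost without each of the other 5 arrays (adjusted p = 0.0876 to 0.330), while the difference stayed between -1.64 and -1.33. Another probe set of Trim34a lay below the filter and differed by -0.08, and the call was also lost with the mean of both (-0.77, adjusted p = 0.172). It was lost as well with a pseudocount of 100 (-0.70, adjusted p = 0.0602), with no filter (adjusted p = 0.0900), with no variance trend (adjusted p = 0.0737) and with each probe set fitted on its own (adjusted p = 0.0568), and under a filter at 50% Trim34a was left out and not tested. It held in 6 of the 10 other settings that tested Trim34a with 1 value per gene, the 3 other scalings among them. Trim34b is a near-identical neighbour in the mouse genome, and probe sets annotated to both genes were not used, so the value is uncertain as to which copy it follows. Whether a sequence difference between the strains under these probes contributes was not tested.

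Several other effectors lay lower in Satin without a call. Isg20, an exonuclease of viral RNA, had 7.18 and 7.65 in Satin, 7.93 and 7.90 in Beige, and 7.82 and 7.86 in BL6 (-0.46, SE 0.19; limma, adjusted p = 0.328), a difference that turned to 0.04 with arrays as deposited. Ifih1, the MDA5 sensor of double-stranded RNA, had 6.64 and 6.82 in Satin, 7.46 and 7.01 in Beige, and 7.32 and 7.07 in BL6 (-0.48, SE 0.21; adjusted p = 0.400). For both genes the Satin arrays lay under all 4 controls after quantile normalization. The difference of Ifih1 was -0.05 with arrays as deposited and -0.02 under hybridization scaling, and its deposited signals, 95.6 and 95.4 in Satin, lay above the 78.4 of BL6 replicate 2.

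Usp18, which removes ISG15 from proteins and curbs interferon signalling, had 6.001 and 5.95 in Satin, 6.52 and 6.34 in Beige, and 6.86 and 6.56 in BL6 (-0.59, SE 0.24; limma, adjusted p = 0.336). Rsad2, viperin, an antiviral enzyme, had 5.81 and 6.12 in Satin, 6.88 and 6.20 in Beige, and 6.86 and 6.46 in BL6 (-0.63, SE 0.29; adjusted p = 0.404), and another of its probe sets past the filter went the other way, at 0.17. Both Satin arrays lay below all 4 control arrays for 6 of the 33 genes tested (18.2%), against 12.7% of all genes: Trim34a, Isg20, Usp18, Rsad2, Ifih1 and Irf9. Ifit2, an RNA-binding antiviral protein that was too dim to be tested, did so as well, with 5.28 and 5.15 in Satin, 6.43 and 5.96 in Beige, and 5.57 and 5.90 in BL6. With arrays as deposited or under hybridization scaling, both Satin arrays lay below all controls for 1 of the 33, Trim34a (2.04% and 1.52% of all genes), and for Ifit2.

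The guanylate-binding proteins, GTPases of defence inside the cell, differed by -0.31 (Gbp2) and -0.37 (Gbp3) with overlapping arrays. Another probe set of Gbp2 past the filter gave -0.65, with both Satin arrays (5.91 and 6.13) under the lowest control array (6.32). Ifit1, a binder of viral RNA caps, differed by 0.23, Oas2, a sensor of double-stranded RNA, by 0.06, Ifi35 by 0.35 and Bst2, tetherin, which holds viruses at the cell surface, by 0.31. Mx1, an antiviral GTPase whose gene is truncated in most inbred laboratory mice, differed by -0.26. Cxcl9 and Cxcl10, chemokines that draw T cells and report interferon gamma, lay below the filter, and Cxcl9 was between 5.09 and 5.19 on all 6 arrays, where the scale starts at 5. The summed normalized signal of the 17 effectors was 535 and 641 in Satin, 929 and 948 in Beige, and 985 and 804 in BL6, with Satin below the controls. With arrays as deposited the sum was 759 and 746 in Satin, 822 and 933 in Beige, and 838 and 602 in BL6, so Satin lay above BL6 replicate 2, as it did under hybridization scaling (758 and 790 in Satin, against 509 on that array). Probe sets with high signals weigh most in this sum, which includes Trim34a.

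**Figure D3:**
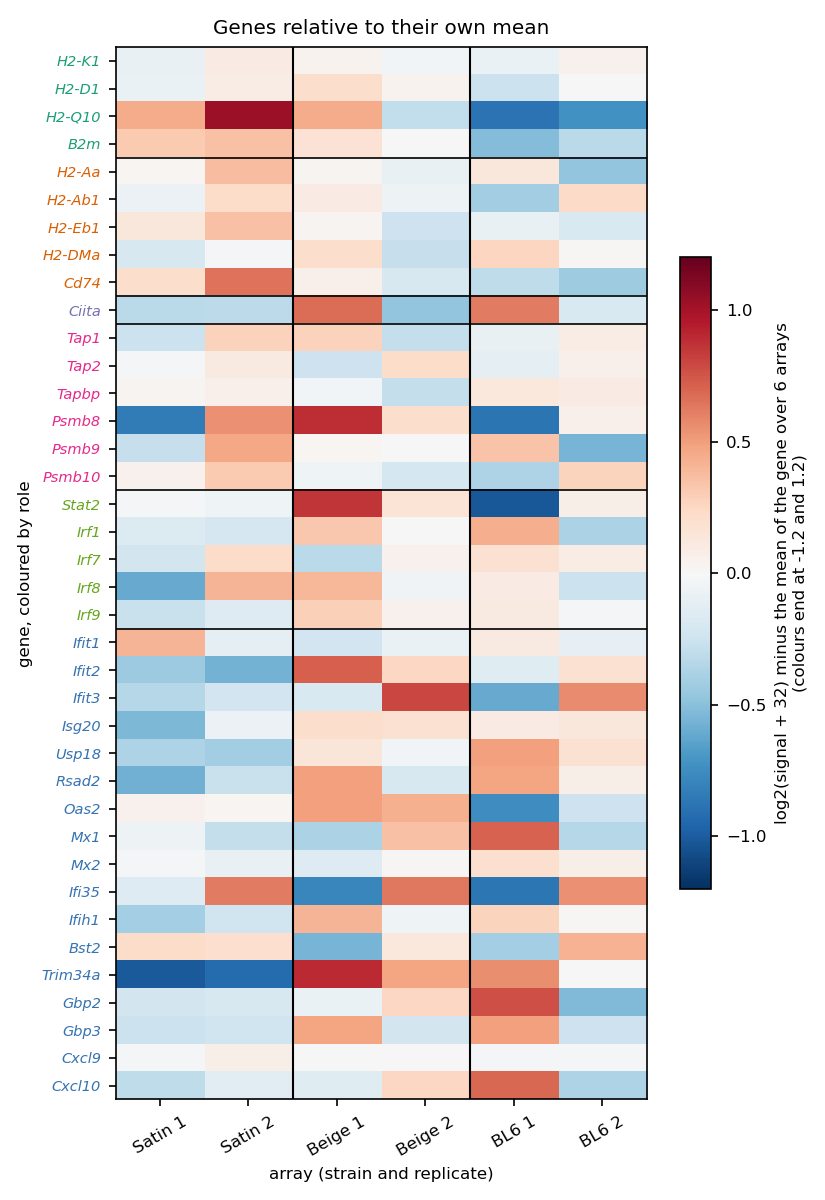
Level of each of the 38 genes on each array minus its own mean over the 6 arrays, in log2(signal + 32), with Satin, Beige and BL6 from left to right and genes ordered by role; red is above and blue below the mean, and colours end at -1.2 and 1.2. H2-Q10, B2m and Cd74 are red on the Satin arrays, Trim34a is deep blue on them, and many of the effectors are pale blue there.

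The promoter motif was set beside the differences. Of the 12 measured genes with GAAANNGAA in the window, 8 were lower and 4 higher in Satin, with a median difference of -0.31. All of them but B2m and Stat2 were effectors, a role with a median of -0.32, so this split nearly repeats that role. Ifit3, Cxcl9 and Cxcl10 among them lay below the filter, as did Ifit2 among the genes without the motif. Of the 18 with a window that lacked these letters, 7 were lower and 11 higher, with a median of 0.01. Other forms of the element were not counted, so H2-K1 is among those without it on these letters only. The groups overlapped, from -1.45 to 0.50 with the motif and from -0.75 to 1.10 without it. B2m, which has the motif, was the highest of the first group, and Isg20 and Ifit2, whose windows lack it, were lower in Satin.

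Between the control strains, Beige against BL6, 0 of 33 genes were called and 0% of all genes. At an unadjusted p under 0.05, limma gave 4 of the 33 (5.13% of all genes), all higher in Beige: Stat2 by 0.98, Oas2 by 0.96, H2-Q10 by 0.88 and B2m by 0.51, each with an adjusted p of 0.864. The deposited BL6 signals were 2.9 and 30.8 for Stat2 and 2.8 and 12.4 for Oas2, so both genes were dim there. The BL6 means of Stat2, Oas2 and H2-Q10, at 5.68, 5.37 and 5.23, lay under the filter threshold of 5.74. Stat2, Oas2 and H2-Q10 thus passed the filter through their levels in Beige and Satin. Another probe set of Stat2, below the filter, differed by -0.12 between these strains. The median difference of Beige against BL6 was 0.38 for class I, 0.11 for class II, 0.01 for processing and loading, 0.13 for the transcription factors and 0.00 for the effectors. For Satin against Beige and against BL6 the medians were 0.12 and 0.44 for class I, 0.22 and 0.37 for class II, and -0.37 and -0.36 for the effectors. These comparisons share the Satin arrays, and the effector median against both controls was -0.07 without BL6 replicate 1 and -0.53 without BL6 replicate 2.

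MHC genes vary widely between haplotypes, and a probe set designed on the sequence of one haplotype can bind the transcript of another less well. Probe sets of 1 gene were therefore set side by side. The 9 probe sets of H2-D1 had differences against both controls that reached from -0.65 to 0.42 among those past the filter, and those of H2-K1 from -0.20 to 0.23. Both H2-D1 extremes came from dim probe sets. The lowest had a deposited signal of 123.5 on BL6 replicate 2 and 14.7 to 39.2 on the other arrays. The highest had signals of 9.1 to 59. The brightest H2-D1 probe sets gave 0.00, 0.12 and 0.01. For H2-Aa, the other probe set gave 0.89 against 0.29 for the one used. For H2-Ab1 the others gave -0.29 and 0.27, and for Tapbp the other gave -0.03. H2-Ea, a class II alpha chain that mice of the b haplotype such as C57BL/6 do not transcribe, lay below the filter on all 3 of its probe sets. On the probe set used it had 5.38 and 5.26 in Satin, 6.04 and 5.29 in Beige, and 6.12 and 5.39 in BL6, with no strain apart from the others. The part of haplotype in the MHC values was not tested.

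**Figure D4:**
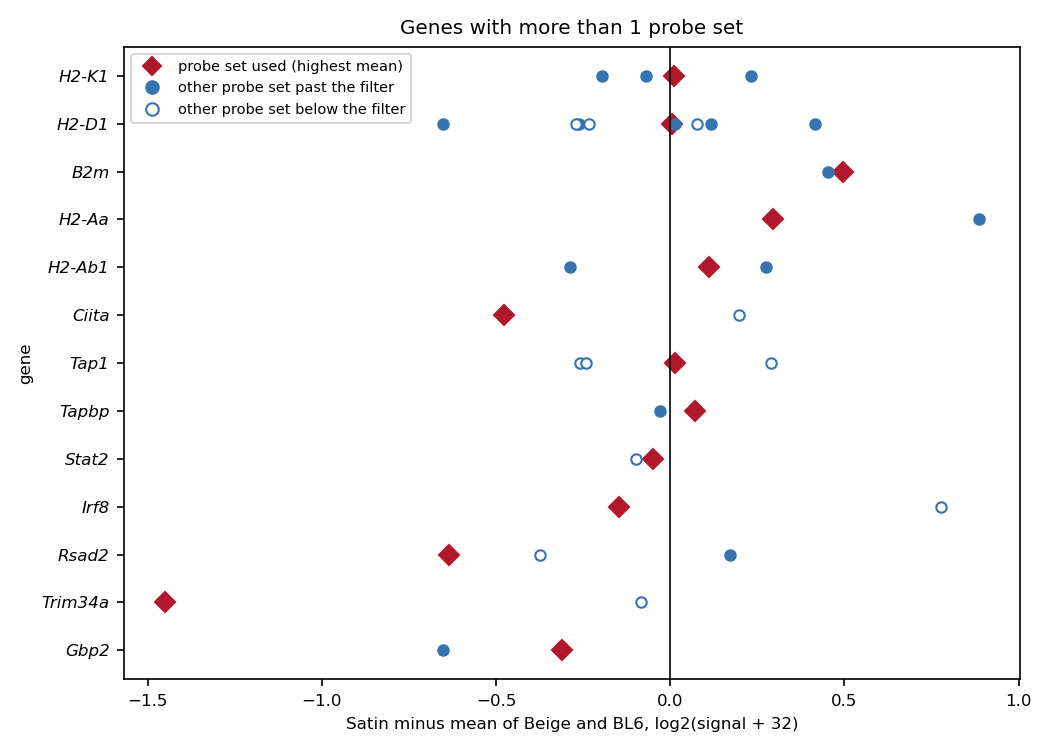
Difference of each single-gene probe set, Satin minus the mean of Beige and BL6 in log2(signal + 32), for the 13 genes with more than 1; red diamonds are the probe sets used, filled blue points others past the filter and open points others below it. The H2-D1 probe sets reach from -0.65 to 0.42, with dim probe sets at both ends, and that of Trim34a at -1.45 has no like among the others.

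Other genes of the same pathways were looked up from 6 lists of 156 names, of which 103 were measured and 72 tested, and 0 were called in any of the 4 comparisons. At an unadjusted p under 0.05, limma gave 5 of the 72 against both controls, 5 against Beige, 8 against BL6 and 5 for Beige against BL6. Of all genes tested, 12.6%, 10.5%, 12.6% and 5.13% had such a p in these comparisons. The median difference of the 103 genes against both controls was -0.08, with 42 higher and 61 lower in Satin. By list it was -0.05 for 13 other class I genes, 0.06 for 9 other class II genes and 0.13 for 6 other loading genes. It was -0.03 for 19 genes of interferon signalling, -0.11 for 10 of nucleic acid sensing and -0.15 for 46 other interferon-induced genes. Of the 13 and the 46, 7 and 13 lay below the filter. The smallest p in the lists belonged to Tor3a, an interferon-induced gene of the torsin family, which had 7.60 and 8.20 in Satin, 6.75 and 6.78 in Beige, and 7.30 and 6.75 in BL6 (1.01, SE 0.24; limma, adjusted p = 0.0873). Psme1, a proteasome activator subunit of class I processing, had 8.83 and 8.80 in Satin, 8.62 and 8.29 in Beige, and 7.83 and 8.08 in BL6 (0.61, SE 0.17; adjusted p = 0.134), an order over the strains like that of B2m. Nmi, a binder of STAT proteins, differed by -0.66 (limma, adjusted p = 0.236) and Dhx58, a regulator of RNA sensing, by -0.71 (adjusted p = 0.406). Dhx58 was at 5.16 and 5.48 on the Satin arrays, under the filter threshold of 5.74, so it passed the filter through its control levels. Mavs, the adaptor of the RNA sensors, differed by 0.50, Irf2 by -0.37, Jak2 by -0.28 and the non-classical class I gene H2-M3 by -0.50. H2-T3 differed by 0.29, Pdia3, which takes part in peptide loading, by 0.28, H2-DMb2 by 0.23 and Ifi30, a thiol reductase of class II processing, by 0.19.

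Arrays differed in ways that touch these values. Median deposited signals ran from 58.6 to 74.15 on the Satin arrays and from 38.2 to 49.5 on the control arrays, so the scaling between arrays matters. With arrays as deposited, the median difference of all 12393 genes against both controls was itself 0.34, and 7 of the 33 genes were called, 6 higher in Satin (Cd74, B2m, H2-Q10, H2-Eb1, H2-Aa and Psmb10) and 1 lower (Trim34a), while over all genes 1475 calls were higher and 62 lower, against 41 and 94 after quantile normalization. With scaling to the hybridization controls the shift of all genes was 0.38, and 10 of the 33 genes were called, 9 higher and 1 lower. Over all 9395 genes tested, 2191 calls were then higher and 62 lower. Relative to the shift of all genes, the class I and class II medians stayed above and the effector median below the median of all genes in each of these scalings and with median centring. The class medians were 0.71 and 0.81 with the effectors at -0.02 as deposited, 0.76 and 0.86 with the effectors at -0.02 under hybridization scaling, and 0.38 and 0.48 with the effectors at -0.35 under median centring. Changes of dim genes come out too small on this scale, so brighter Satin arrays raise bright genes more than dim ones. The bright genes H2-K1 and H2-D1 differed by 0.01 and 0.00 after quantile normalization. They differed by 0.40 and 0.45 as deposited and by 0.07 and 0.12 under median centring, above the median of all genes in both. Many effectors were dim, so the order of the medians in these scalings cannot separate role from brightness.

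The ratio of 5′ to 3′ Gapdh probe sets was 0.526 on BL6 replicate 1 and 0.988 to 1.18 on the others. Pancreas markers were high on the replicate 2 arrays of all 3 strains (median levels 12.23, 10.09 and 12.94 in Satin, Beige and BL6, against 5.60, 6.58 and 5.16 on the replicate 1 arrays). Over the 38 genes the median of replicate 2 minus replicate 1 was 0.15 in Satin, -0.17 in Beige and -0.09 in BL6, with 3 genes above and 2 below 0 in all 3 strains. The antral markers Gkn1, Gkn2 and Tff1 lay between 12.999 and 13.287 on all arrays, and the sum of 7 such markers, 1 of them called lower, was 48156 to 49007 in Satin and 45140 to 51717 in the controls. Smooth muscle markers (2 of 5 called lower) summed to 4843 to 4976 in Satin and 6317 to 9657 in the controls, and intestinal epithelium markers (1 of 4 called lower, Cdx1 and Cdx2 below the filter) to 331 to 600.3 in Satin and 2017 to 3185 in the controls. Of the endothelium, squamous forestomach and pancreas markers 0 were called, with sums of 224 to 240.5, 242 to 284 and 74.3 to 20518 in Satin and of 223 to 281, 109 to 530.5 and 114 to 31080 in the controls. Whether the makeup of the tissue bears on the MHC and interferon values was not tested.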

How the data were processed

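Per the labels' protocols, Trizol was used to extract total RNA, which was hybridized as biotin-labelled cRNA. The authors deposited an intensity on a linear scale for each of 22690 probe sets on each array. The sources used here name no algorithm, scaling or detection calls for them. Arrays were grouped by strain from their titles. The labels do not say that each array holds RNA of a separate mouse, so p-values measure the spread between arrays, which may be technical, and 2 arrays a strain limit the precision. Of sample columns 0 were left unused, and no pair of arrays shared more than 88 equal values.

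The 64 control probe sets were left out, and log2(signal + 32) of the others was quantile normalized, a scale on which changes of dim genes come out too small. Names come from the platform annotation, in which 20380 probe sets carried 1 gene symbol, 691 carried several and 1555 were not listed. Genes whose mean lay in the lowest 30% of probe sets (below 5.74) were not tested. A single fit of all 6 arrays was made in limma 3.58.1 under R 4.3.3, with lmFit and a trended eBayes, and tests were two-sided, with 9.24 degrees of freedom after moderation. The steps were tested on simulated data. The genes and lists were chosen with earlier results of these data known, and the 9-letter response element core was taken after a longer form had been searched.

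By the rule for named genes, values on every array are given for called genes and, in each role, for the 2 genes with the smallest p and the 2 brightest. For other pathway genes the 2 of each list with the smallest p are named, with H2-Ea, and other probe sets where they differ in sign or by over 1. A further gene of that rule is not reported here. Values on every array of Usp18, Rsad2 and Ifit2, and other single values, were chosen after they were seen. The titles number the replicates but state no pairing, and the main fit used none. Across genes, the deviations of same-numbered arrays from their strain means correlated weakly. The correlations were 0.189 (Satin and Beige), 0.272 (Satin and BL6) and 0.118 (Beige and BL6). Other settings were scaling, pseudocounts of 16 and 100, filters, probe set choice, variance model, a replicate block, omission of each array and fits of 4 arrays.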

Additional observations from a re-analysis of the deposited data

How the results depend on the processing

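With 2 arrays a strain and signals near the bottom of the scale for many effectors, differences of the size seen in B2m or Cd74 were not called, and a missed threshold does not show that levels were alike. With replicate number as a block, 123 genes were called against both controls (135 without it), Trim34a remained the called gene (adjusted p = 0.0484), and no other call among the 33 genes changed. With arrays as deposited, the genes called among the 33 numbered 7 against both controls, 1 against Beige and 6 against BL6, and all genes called 1537, 200, 1875 and, for Beige against BL6, 3. Irf1 was then 0.26, Irf9 0.0257 and Isg20 0.0428, each reversed. Under hybridization control scaling the numbers were 10 and 10 (both controls and BL6) among the 33 and 2253, 180, 3009 and 4 over all genes, with Irf1 at 0.30, Irf9 at 0.0504 and Isg20 at 0.0862, and these reversals went with the shift of all genes. Under median centring 1 of the 33 and 52 of all genes were called against Beige. With a pseudocount of 100, no filter, the mean of probe sets, each probe set on its own or no variance trend, 0 of the MHC and interferon genes were called against both controls. A 50% filter gave 0 of the 20 it left to test, since 13 of the 33, Trim34a among them, were left out. With no filter, 49 genes were called against Beige and 33 against BL6. The mean of probe sets gave 85, 37 and 22 genes (both controls, Beige, BL6) and turned H2-K1 to -0.00517 and H2-D1 to -0.0876, and no trend gave 36, 18 and 12. The robust option gave 228 genes against both controls, 122 against BL6 and 1 of the 33 against Beige. Fits of the 4 arrays compared gave 136 genes against Beige and 22 against BL6. Leaving out each array gave 0 to 1 of the 33 against both controls, against Beige and against BL6, and 0 for Beige against BL6. Over all genes it gave 28 to 297, 8 to 145, 19 to 226 and 0 to 12. In these fits H2-K1 ran from -0.0833 to 0.111, H2-D1 from -0.078 to 0.0879 and Psmb8 from -0.90 to 0.46. Apart from the scaling, the fewer probe sets and the fewer arrays, the cause of these changes was not tested.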
